A study of Rattus norvegicus with 10 samples.

Results

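The myosin light chain genes Myl1, Myl2, Myl3, Myl4, Myl6, Myl7, Myl9, Myl12a and Myl12b, and the light chain kinase gene Mylk3, were followed in neonatal rat cardiomyocytes that overexpressed either of 2 forms of YAP. They were chosen by gene name and make up 10 of the 39784 gene names in the deposited RNA-seq tables. One group carried YAP5SA, a YAP made active by changing inhibitory serines to alanine. The other carried YAP5SA-S94A, the same protein with an added serine-to-alanine change that impairs binding to TEAD, the DNA-binding partners of YAP. Per the labels, all cells were wild-type rat heart cardiomyocytes that received the construct as Ad-Xon-YAP5SA or Ad-Xon-YAP5SA-S94A. Each form had 2 libraries, numbered 1 and 2 in the titles. RNA from GFP or uninfected cells was not analysed here, so a gene that differs may have moved in either form. The labels speak of biological replicates without saying whether they were separate cultures, so p-values measure the spread between these libraries, which may be technical.

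Myosin II motors are built from paired heavy chains, each of which carries an essential and a regulatory light chain on its lever arm. In the heart, ventricular muscle is known for the regulatory chain Myl2 and the essential chain Myl3, and atrial muscle for Myl7 and Myl4, while non-muscle and smooth muscle myosins carry Myl6 as the essential chain and Myl9, Myl12a or Myl12b as the regulatory chain. Phosphorylation of the regulatory chain tunes force in the sarcomere and switches the motor on in non-muscle cells. Mylk3 encodes the kinase that phosphorylates the ventricular regulatory chain in cardiomyocytes.

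Levels are TPM, a length-corrected share of each library's transcripts. The tables correspond to 5.10 and 4.02 gigabases of aligned sequence for YAP5SA replicates 1 and 2, and to 5.02 and 4.97 gigabases for YAP5SA-S94A replicates 1 and 2. Across the tested genes, log2 values correlated at 0.985 within YAP5SA and 0.991 within YAP5SA-S94A, and at 0.926 to 0.932 between the forms. Mitochondrial genes accounted for 7.53% and 10.2% of TPM with YAP5SA, against 12.6% and 14.0% with YAP5SA-S94A. Fold changes are differences in mean log2(TPM + 1), with YAP5SA-S94A subtracted from YAP5SA. A gene is said to have risen or fallen, or to be called, where limma's p, adjusted by the Benjamini-Hochberg method over 13420 tested genes, lay under 0.05.

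All 10 genes were tested. Myl12a, Myl12b and Myl9, the non-muscle regulatory chains, rose in YAP5SA, whereas Myl7, Mylk3, Myl1 and Myl3 fell. Myl2, Myl4 and Myl6 were not called. The 7 calls among 10 genes stand beside 32.9% called over all tested genes. The 3 genes that rose stand beside 17.4% called higher, and the 4 that fell beside 15.5% called lower. The groups did not overlap for any of the 10 genes, against 68.2% of all tested genes. Of the 5 sarcomeric chains, 3 fell and 0 rose, with a median log2 fold change of −0.47. Of the 4 non-muscle chains, 3 rose and 0 fell, with a median of 0.65, while the median over all tested genes was 0.00.

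**Figure D1:**
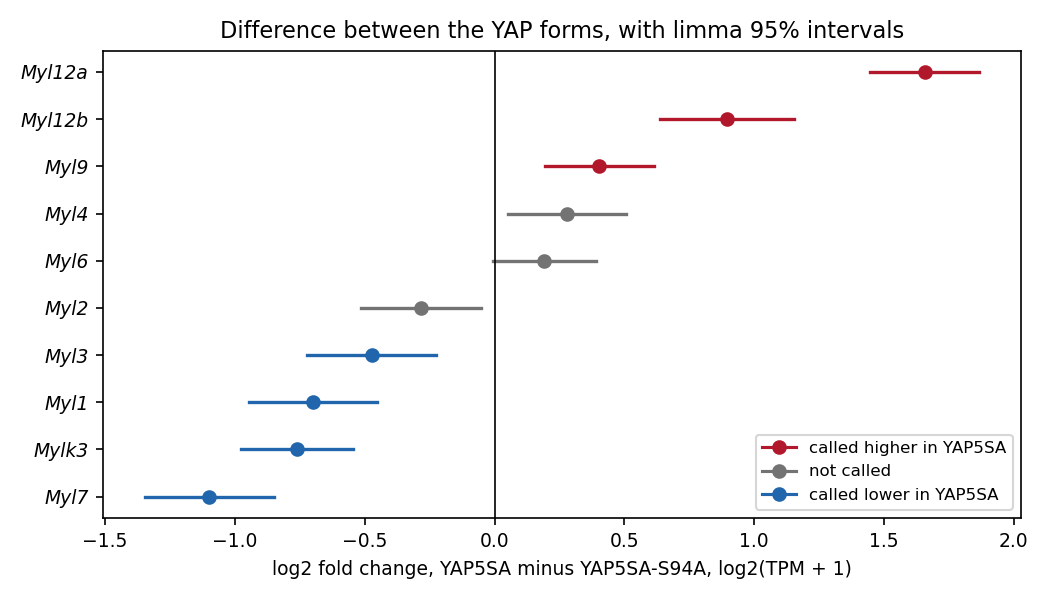
Log2 fold change, YAP5SA minus YAP5SA-S94A, of each of the 10 genes on the horizontal axis, with limma 95% confidence intervals. The intervals of Myl12a, Myl12b and Myl9 lie to the right of 0, those of Myl7, Mylk3, Myl1 and Myl3 to the left, and that of Myl6 crosses 0.

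The promoters of 4 genes are given, as 2 that rose (Myl12a and Myl12b, neighbours on chromosome 9) and 2 that fell (Myl3 and Mylk3). Each runs from 250 bases before to 50 bases after a RefSeq start of the gene. All are read 5′ to 3′ on the gene's strand, in the rat assembly GRCr8. Capitals mark CATTCC or its reverse complement GGAATG, the core of the sequence known to be bound by TEAD factors, and the CArG box bound by SRF. RefSeq places them at chr9:118346228-118346527 on the minus strand (Myl12a), chr9:118334761-118335060 on the minus strand (Myl12b), chr8:119616844-119617143 on the plus strand (Myl3) and chr19:37881745-37882044 on the plus strand (Mylk3).
Myl12a: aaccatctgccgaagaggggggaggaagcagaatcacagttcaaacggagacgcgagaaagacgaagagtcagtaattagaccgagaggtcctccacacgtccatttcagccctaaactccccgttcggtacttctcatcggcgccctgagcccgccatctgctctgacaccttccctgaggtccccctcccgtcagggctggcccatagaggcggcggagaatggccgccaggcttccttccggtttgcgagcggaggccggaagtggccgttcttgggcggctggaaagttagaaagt
Myl12b: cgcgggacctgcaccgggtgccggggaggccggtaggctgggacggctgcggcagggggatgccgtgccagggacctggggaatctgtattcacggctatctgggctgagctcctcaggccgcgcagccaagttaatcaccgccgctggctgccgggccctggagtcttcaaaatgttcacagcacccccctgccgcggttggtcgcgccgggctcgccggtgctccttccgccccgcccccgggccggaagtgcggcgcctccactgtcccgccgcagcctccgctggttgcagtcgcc
Myl3: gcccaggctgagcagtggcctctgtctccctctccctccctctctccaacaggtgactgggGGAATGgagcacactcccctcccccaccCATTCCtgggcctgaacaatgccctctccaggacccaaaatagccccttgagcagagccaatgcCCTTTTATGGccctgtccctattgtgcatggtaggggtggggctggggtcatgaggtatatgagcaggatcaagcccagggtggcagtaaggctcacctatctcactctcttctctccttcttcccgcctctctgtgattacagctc
Mylk3: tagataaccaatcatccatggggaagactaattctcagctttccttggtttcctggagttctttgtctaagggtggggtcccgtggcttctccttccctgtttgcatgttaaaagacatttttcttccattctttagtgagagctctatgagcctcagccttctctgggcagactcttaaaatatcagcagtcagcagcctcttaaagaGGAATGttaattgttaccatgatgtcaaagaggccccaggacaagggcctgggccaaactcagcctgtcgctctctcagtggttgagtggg

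Both strands were searched for CATTCC, the CArG box and the MEF2 site. Of the 10 genes, all but Myl2 and Myl9 were matched by symbol to RefSeq promoters, which gave 9 windows for 8 genes, with 2 starts for Myl1. The Myl3 promoter held GGAATG at −189 to −184, CATTCC at −161 to −156 and a CArG box at −97 to −88, counted from the start. The Mylk3 window held GGAATG at −41 to −36. Of the 8 genes, only Myl3 and Mylk3, both printed above, held CATTCC on either strand. Myl7 and Myl1, which also fell and are not printed, held no CATTCC. The windows of Mylk3, Myl4 and Myl7 and of the other start of Myl1 lie wholly within the span of their gene. A MEF2 site stood at −176 to −167 of the other start of Myl1, and the promoters of Myl4, Myl6, Myl7, Myl12a and Myl12b held none of these words. Over 33469 rat promoters of the same length, 14.2% held CATTCC, 1.64% a CArG box and 3.29% a MEF2 site. The capitals are matches of letters and were not tested for binding.

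The genes spanned a wide range, from a mean over the 4 libraries of 119 TPM for Myl7 to 10558 TPM for Myl2. In YAP5SA the order from the highest was Myl2, Myl3, Myl12a, Myl6, Myl9, Myl4, Myl12b, Mylk3, Myl1 and Myl7, and no neighbours in that order had overlapping libraries. In YAP5SA-S94A it was Myl2, Myl3, Myl6, Myl9, Myl12a, Mylk3, Myl4, Myl1, Myl7 and Myl12b, where the libraries of Myl1 and Myl7 overlapped. By TPM, Myl12a was thus the third of the 10 genes in YAP5SA and the fifth in YAP5SA-S94A. By per-base coverage, scaled to the same sum in each library, Myl9 stood above Myl6 in all 4 libraries. In YAP5SA-S94A, Myl12a then stood at 595 and 547, overlapping Myl6 at 590 and 573. Places in the order thus depend on the measure. Among all gene names, Myl2 ranked 4 and 3 in the YAP5SA libraries and 4 and 4 in the YAP5SA-S94A libraries. Myl12a ranked 67 and 63 in YAP5SA, against 235 and 249 in YAP5SA-S94A. Levels relative to other genes are uncertain, most of all those of Myl4 and Mylk3. The deposited per-base coverage of Myl4, relative to its FPKM, was 3.15% to 3.34% of the highest such ratio in its library, that of Mylk3 10.96% to 11.4%, and those of the other 8 genes 32.9% to 99.1%. Since each gene's ratio was nearly the same in all libraries, its difference between the forms was hardly touched.

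**Figure D2:**
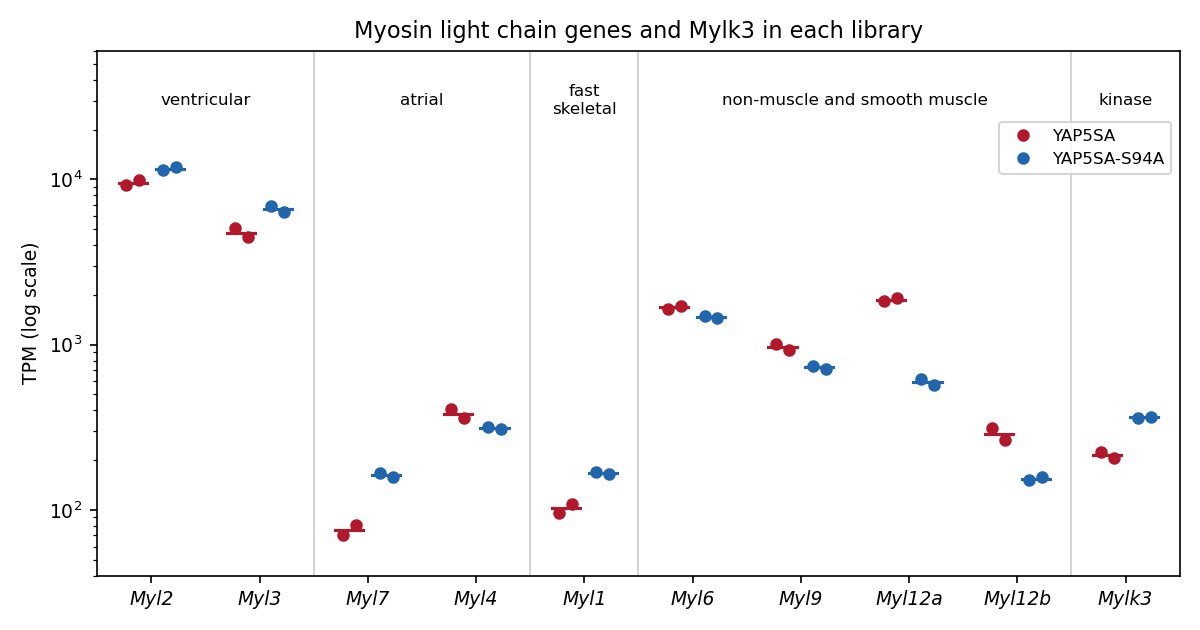
TPM of each gene in every library on a log axis, with YAP5SA to the left of YAP5SA-S94A and 1 point per library. Myl2 stands highest in all 4 libraries, and the Myl12a points lie at 1846 and 1902 TPM in YAP5SA against 620 and 569 TPM in YAP5SA-S94A.

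Among the sarcomeric regulatory chains, the atrial chain fell and the ventricular chain was not called. Myl7 (chromosome 14, 80780684 to 80783259, minus strand, rn7) stood at 70.9 and 80.6 TPM in YAP5SA, against 167 and 159 TPM in YAP5SA-S94A. Both YAP5SA libraries lay below both YAP5SA-S94A libraries. Its means were 75.7 ± 6.85 TPM in YAP5SA and 163 ± 5.55 TPM in YAP5SA-S94A (SD, n = 2 each), a fold of 0.465 and a log2 fold change of −1.10 (SE 0.11, limma adjusted p = 0.000374). Myl2 (chromosome 12, 34454223 to 34468554, minus strand), the most abundant of the family, stood at 9193 and 9864 TPM in YAP5SA, against 11365 and 11811 TPM in YAP5SA-S94A. The YAP5SA libraries were again the lower ones, and the groups did not overlap. The log2 fold change of Myl2 was −0.28 (SE 0.10, 95% interval −0.51 to −0.05), with a limma adjusted p of 0.0633. That call depends on the processing: Myl2 was called lower when the mitochondrial chromosome was left out (−0.36, adjusted p = 0.0127), and its sign turned after quantile normalization (0.08, adjusted p = 0.417).

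The share of Myl7 in the summed Myl7 and Myl2 TPM was small in all libraries. It was 0.765% and 0.810% in YAP5SA, against 1.45% and 1.33% in YAP5SA-S94A. The ratio of Myl2 to Myl7 was 130 and 122 in YAP5SA and 68.1 and 74.3 in YAP5SA-S94A. The shares did not overlap, and an exact two-sided permutation test gave p = 0.333, the smallest that 2 libraries against 2 allow.

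Among the sarcomeric essential chains, Myl3 and Myl1 fell and Myl4 was not called. Myl3 (chromosome 8, 110738669 to 110744814, plus strand), which ventricular and slow skeletal muscle share, stood at 5045 and 4453 TPM in YAP5SA, against 6864 and 6312 TPM in YAP5SA-S94A. The YAP5SA libraries were the lower ones without overlap, with a log2 fold change of −0.47 (SE 0.11, limma adjusted p = 0.0133). It was not called without YAP5SA-S94A replicate 1 (−0.41, adjusted p = 0.174), without YAP5SA-S94A replicate 2 (−0.53, adjusted p = 0.0618) and after quantile normalization (−0.24, adjusted p = 0.16). Myl1 (chromosome 9, 68437514 to 68458256, minus strand), the essential chain of fast skeletal muscle, stood at 95.4 and 109 TPM in YAP5SA, against 169 and 164 TPM in YAP5SA-S94A. It was 0.614 times as high in YAP5SA, with a log2 fold change of −0.70 (SE 0.11, limma adjusted p = 0.00247), and the libraries did not overlap.

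Myl4 (chromosome 10, 89449456 to 89485365, plus strand), the essential chain of atrial and embryonic muscle, had the opposite sign to Myl7 and was the one sarcomeric chain with higher values in YAP5SA. It stood at 405 and 360 TPM in YAP5SA, against 319 and 310 TPM in YAP5SA-S94A. The groups did not overlap, although the 2 YAP5SA libraries lay further apart than those of the other form. The log2 fold change was 0.28 (SE 0.10, 95% interval 0.05 to 0.51), with a limma adjusted p of 0.0624. Myl4 shares 361 bases with Cdc27 on the opposite strand, which stood at 35.2 and 42.8 TPM in YAP5SA and 32.5 and 34.6 TPM in YAP5SA-S94A. Where counting ignored strand, reads in that overlap cannot be told apart. Myl4 made up 7.44% and 7.47% of the summed Myl4 and Myl3 TPM in YAP5SA, against 4.44% and 4.68% in YAP5SA-S94A (exact permutation p = 0.333, the smallest possible). By per-base coverage, scaled to the same sum in each library, the same share was 0.278% and 0.287% in YAP5SA, against 0.163% and 0.165% in YAP5SA-S94A. The size of the share thus depends on the measure, while YAP5SA was higher by either.

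The kinase Mylk3 (chromosome 19, 21685085 to 21743587, plus strand) stood at 224 and 205 TPM in YAP5SA, against 359 and 367 TPM in YAP5SA-S94A. Both YAP5SA libraries lay below both libraries of the other form. Mean levels were 214 ± 13.4 TPM in YAP5SA and 363 ± 4.99 TPM in YAP5SA-S94A, a log2 fold change of −0.76 (SE 0.09, limma adjusted p = 0.000976). The substrate Myl2 exceeded its kinase in TPM in all 4 libraries.

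Other genes of cardiomyocytes moved with the sarcomeric chains. Of a list of 10 cardiomyocyte markers, which holds the heavy chain genes Myh6 and Myh7, 7 fell and 1 rose. Over all tested genes 15.5% were called lower and 17.4% higher. The list's summed level was 14402 and 14379 TPM in YAP5SA, against 20003 and 19995 TPM in YAP5SA-S94A. The 7 became 4 without YAP5SA-S94A replicate 2. Tnnt2, the cardiac troponin T gene and the largest part of that sum, averaged 6067 ± 362 TPM in YAP5SA and 8093 ± 137 TPM in YAP5SA-S94A, a call lost on leaving out YAP5SA-S94A replicate 1 (limma adjusted p = 0.16) or 2 (0.203). Tnni3, the cardiac troponin I gene, averaged 857 ± 78.4 TPM in YAP5SA and 2508 ± 151 TPM in YAP5SA-S94A. Tnnc1, which encodes the troponin C of slow and cardiac muscle, rose instead, to 3565 ± 78.2 TPM in YAP5SA against 2753 ± 75.9 TPM in YAP5SA-S94A, though leaving out YAP5SA-S94A replicate 1 (limma adjusted p = 0.17) or 2 (0.257) ended the call. In bulk samples fewer cells of a type and less RNA per cell cannot be told apart, and the part of either in the sarcomeric chains was not tested.

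The atrial and ventricular marker lists did not move as one. Their counts stand beside 17.4% called higher and 15.5% called lower over all tested genes. Of 12 atrial markers, 11 were tested, of which 4 fell and 1 rose, and Bmp10 was listed at 0 in all libraries. The 4 that fell, named after their values were seen, were Kcnj3 (log2 fold change −2.82), Tbx5 (−1.49), Stard10 (−1.24) and Gja5 (−0.84). These 4 calls became 2 with no filter on low values or at an adjusted p under 0.01. The 1 that rose was Nppa, the atrial natriuretic peptide gene, at 9550 ± 107 TPM in YAP5SA and 3729 ± 20.7 TPM in YAP5SA-S94A, and it dominated the list's sum of 10136 and 9970 TPM in YAP5SA against 4325 and 4295 TPM in YAP5SA-S94A. Of the 9 ventricular markers 4 fell and 1 rose, and the 4 became 2 without YAP5SA-S94A replicate 2. The gene that rose was Lbh, a regulator of heart development, at 731 ± 24.0 TPM in YAP5SA and 451 ± 16.0 TPM in YAP5SA-S94A. Gja1, the connexin 43 gene of working myocardium, fell to 318 ± 4.07 TPM in YAP5SA, against 563 ± 34.0 TPM in YAP5SA-S94A.

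The largest difference of the family was that of a non-muscle chain, Myl12a, and the smallest that of another, Myl6. Myl12a (chromosome 9, 110891970 to 110899655, minus strand), a regulatory chain found in most cells, stood at 1846 and 1902 TPM in YAP5SA, against 620 and 569 TPM in YAP5SA-S94A. The 2 groups lay far apart relative to the spread within each. The means were 1874 ± 39.8 TPM in YAP5SA and 594 ± 36.1 TPM in YAP5SA-S94A, a fold of 3.15 and a log2 fold change of 1.66 (SE 0.09, limma adjusted p = 3.94e-05). By size of log2 fold change it ranked 581 among the tested genes.

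Myl12b (chromosome 9, 110873855 to 110888187, minus strand), a close paralog, lies 3782 bases from Myl12a on the same strand. It stood at 314 and 265 TPM in YAP5SA, against 151 and 158 TPM in YAP5SA-S94A. Both YAP5SA libraries were higher, by a fold of 1.87 in the means and a log2 fold change of 0.90 (SE 0.11, limma adjusted p = 0.00104). How the authors' counting divided reads between these near-identical genes is not known, so their separate values are uncertain. Summed, the pair had a log2 fold change of 1.53 (limma adjusted p = 4.2e-05). The ratio of Myl12a to Myl12b was 5.88 and 7.18 in YAP5SA, against 4.10 and 3.59 in YAP5SA-S94A.

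Myl9 (chromosome 3, 145281943 to 145288333, plus strand), the regulatory chain best known from smooth muscle, stood at 1005 and 931 TPM in YAP5SA, against 748 and 716 TPM in YAP5SA-S94A. The YAP5SA libraries were the higher ones, without overlap. The log2 fold change was 0.40 (SE 0.09, limma adjusted p = 0.0128), and it was no longer called when YAP5SA-S94A replicate 1 (0.43, adjusted p = 0.0969) or replicate 2 (0.37, adjusted p = 0.174) was left out. Myl6 (chromosome 7, 910764 to 914062, minus strand), the essential chain of smooth muscle and non-muscle myosin, stood at 1654 and 1701 TPM in YAP5SA, against 1493 and 1445 TPM in YAP5SA-S94A. Its values were higher in both YAP5SA libraries, but the log2 fold change of 0.19 (SE 0.09, 95% interval −0.01 to 0.39) was not called (limma adjusted p = 0.127). By TPM, the 3 non-muscle regulatory chains together stood at 1.91 and 1.82 times Myl6 in YAP5SA, against 1.02 and 0.999 times in YAP5SA-S94A. By per-base coverage, scaled to the same sum in each library, that ratio averaged 4.71 in YAP5SA and 2.65 in YAP5SA-S94A. Both measures put YAP5SA higher without overlap, but the level of the ratio, and so any balance with Myl6, depends on the measure. Myl12a alone made up 58.3% and 61.4% of the non-muscle regulatory TPM in YAP5SA, against 40.8% and 39.4% in YAP5SA-S94A.

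Some smooth muscle markers were also higher in YAP5SA. Of 10 such markers 5 rose, 0 fell and 5 were not called, beside 17.4% called higher and 15.5% called lower over all tested genes. Their summed level was 7186 and 7029 TPM in YAP5SA, against 1480 and 1444 TPM in YAP5SA-S94A, most of it from Acta2 and Tagln. Acta2, the smooth muscle actin gene, stood at 4877 ± 70.7 TPM in YAP5SA and 449 ± 25.0 TPM in YAP5SA-S94A. Tagln, the transgelin gene, stood at 1509 ± 55.3 TPM in YAP5SA and 593 ± 5.37 TPM in YAP5SA-S94A, and the caldesmon gene Cald1 at 355 ± 61.7 TPM in YAP5SA and 133 ± 1.75 TPM in YAP5SA-S94A. Myh11, the smooth muscle heavy chain that defines that cell type, was low in both groups, at 15.0 and 14.9 TPM in YAP5SA and 13.5 and 13.9 TPM in YAP5SA-S94A, and was not called (log2 fold change 0.12, limma adjusted p = 0.547).

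Markers of other cell types that express non-muscle chains were mixed. Their counts stand beside 17.4% called higher and 15.5% called lower over all tested genes. Of 10 fibroblast markers 2 fell and 0 rose, with sums of 8595 and 6809 TPM in YAP5SA and 7316 and 6964 TPM in YAP5SA-S94A, which overlap. The 2 that fell, named after their values were seen, were Dcn (log2 fold change −0.67, limma adjusted p = 0.00186) and Postn (−0.59, adjusted p = 0.00229). The collagen genes Col1a1 (0.37), Col1a2 (0.16) and Col3a1 (−0.02) of that list were not called. Without YAP5SA replicate 2 the log2 fold changes of Col1a1 and Col1a2 were larger, at 0.61 and 0.33. Of 6 pericyte markers 1 fell, the potassium channel subunit gene Abcc9, which heart muscle also expresses. It averaged 13.0 ± 0.36 TPM in YAP5SA and 94.9 ± 8.94 TPM in YAP5SA-S94A. The list summed to 205 and 182 TPM in YAP5SA and 254 and 281 TPM in YAP5SA-S94A, a lower sum that rests on Abcc9. Rgs5 had the opposite sign and was not called (log2 fold change 0.38, limma adjusted p = 0.0523), but was called higher by scaled coverage (0.39, adjusted p = 0.0446). Of 7 epicardial and mesothelial markers 4 rose, with sums of 115 and 99.04 TPM in YAP5SA and 58.0 and 54.8 TPM in YAP5SA-S94A. The 3 not called, named after their values were seen, were lower in YAP5SA. Their log2 fold changes were −0.20 (Wt1), −0.34 (Tbx18) and −0.37 (Upk1b). Upk3b, 1 of the 4 that rose and named after its values were seen, averaged 20.3 TPM in YAP5SA and 0.58 TPM in YAP5SA-S94A. It passed the filter on low values only through YAP5SA. Of 6 tested endothelial markers 1 rose and 1 fell, and of 5 tested macrophage markers 1 rose and 2 fell, the 2 becoming 1 without either YAP5SA-S94A library. Endothelial markers summed to 27.8 and 29.3 TPM in YAP5SA and 38.5 and 38.8 TPM in YAP5SA-S94A. The lower endothelial sum in YAP5SA rests on Kdr, which averaged 3.65 ± 0.45 TPM in YAP5SA and 20.6 ± 1.01 TPM in YAP5SA-S94A. Tek was the endothelial marker that rose, at 11.6 ± 1.99 TPM in YAP5SA and 3.68 ± 0.16 TPM in YAP5SA-S94A. Macrophage markers summed to 113 and 103 TPM in YAP5SA and 124 and 121 TPM in YAP5SA-S94A. Of 4 tested skeletal muscle markers 2 rose and 1 fell. Ckm fell, to 247 ± 47.3 TPM in YAP5SA against 1023 ± 58.3 TPM in YAP5SA-S94A. Acta1 rose, to 1427 ± 190 TPM in YAP5SA against 724 ± 28.9 TPM in YAP5SA-S94A. Atp2a1, the other that rose, averaged 11.9 TPM in YAP5SA and 0.95 TPM in YAP5SA-S94A, and also passed the filter only through YAP5SA. The list also held 3 regulators, Myod1, Myf5 and Pax7, that were listed at 0 in all libraries. Of the other regulators, named after their values were seen, Myf6 stood at 0.83 and 1.12 TPM in YAP5SA and Myog at 0.547 and 0 TPM in YAP5SA, while both were listed at 0 in YAP5SA-S94A. The part of other cells in the light chain differences was not tested.

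Seen as a composition, the non-muscle chains took a larger part of the light chain transcripts in YAP5SA. They made up 24.5% and 24.4% of all light chain TPM in YAP5SA, against 13.8% and 13.3% in YAP5SA-S94A (exact permutation p = 0.333, the smallest possible). The replicates differed by far less than the forms. Myl12a rose to a mean of 9.54% of light chain TPM in YAP5SA, against 2.73% in YAP5SA-S94A. Myl3 made up 24.2% in YAP5SA and 30.3% in YAP5SA-S94A, and Myl2 48.5% in YAP5SA and 53.2% in YAP5SA-S94A. All 9 light chains together took 1.96% and 1.97% of total TPM in YAP5SA, against 2.19% and 2.16% in YAP5SA-S94A. Within the sarcomeric chains, Myl2 made up 62.1% and 66.4% in YAP5SA and 60.2% and 63.0% in YAP5SA-S94A, which overlap. The ratio of sarcomeric essential to regulatory chains also overlapped, at 0.599 and 0.495 in YAP5SA and 0.638 and 0.567 in YAP5SA-S94A.

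**Figure D3:**
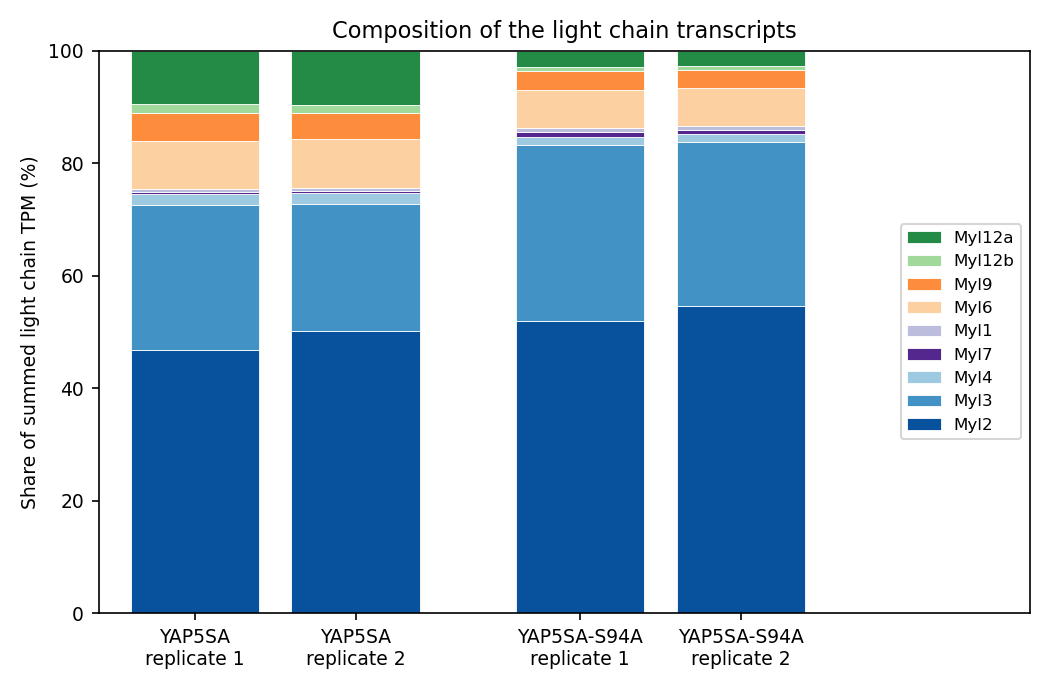
Stacked bars of each light chain's share of the summed light chain TPM, in percent, with 1 bar per library and the YAP5SA libraries on the left. The Myl12a segment has a mean of 9.54% in YAP5SA and 2.73% in YAP5SA-S94A, and Myl2 and Myl3 fill most of every bar.

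Light chains are bound by heavy chains, and the heavy chain genes were set beside them. Sarcomeric light chains summed to 14810 and 14867 TPM in YAP5SA, against 18883 and 18756 TPM in YAP5SA-S94A. Sarcomeric heavy chains summed to 2122 and 1897 TPM in YAP5SA, against 2890 and 3020 TPM in YAP5SA-S94A. Both sums were lower in YAP5SA without overlap, and the ratio of light to heavy chains was 6.98 and 7.84 in YAP5SA and 6.53 and 6.21 in YAP5SA-S94A (exact permutation p = 0.333). The sum of the heavy chains hides opposite members. Of 7 tested genes 4 rose and 2 fell, beside 17.4% called higher and 15.5% called lower over all tested genes. The 4 that rose, Myh1, Myh2, Myh3 and Myh8, averaged under 1 TPM in YAP5SA-S94A. They passed the filter of a mean of 1 TPM only through YAP5SA, so their count was partly fixed by that filter. Myh6, the alpha chain of the adult rat heart, averaged 436 ± 31.7 TPM in YAP5SA and 1444 ± 78.4 TPM in YAP5SA-S94A. The developmental chain Myh3 averaged 185 ± 37.0 TPM in YAP5SA and 0.85 ± 0.01 TPM in YAP5SA-S94A. Myh7b, a slow-type chain of striated muscle, also fell, to 7.37 ± 1.58 TPM in YAP5SA against 27.3 ± 3.60 TPM in YAP5SA-S94A. Myh8, the perinatal chain, averaged 48.5 ± 4.16 TPM in YAP5SA and 0.05 ± 0.02 TPM in YAP5SA-S94A. The fast chains Myh1 and Myh2 stood at 10.2 and 10.3 TPM and at 20.2 and 20.6 TPM in YAP5SA, and were listed at 0 and 0.067 TPM and at 0 and 0.11 TPM in YAP5SA-S94A. Myh7, the beta chain, was not called at 1302 ± 159 TPM in YAP5SA and 1483 ± 16.4 TPM in YAP5SA-S94A (limma adjusted p = 0.207), but was called lower without YAP5SA replicate 1 (−0.32, adjusted p = 0.0194). Reads of these similar heavy chains cannot be divided with certainty.

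On the non-muscle side light and heavy chains were both higher in YAP5SA. Non-muscle light chains summed to 4818 and 4799 TPM in YAP5SA, against 3012 and 2888 TPM in YAP5SA-S94A. Non-muscle and smooth muscle heavy chains summed to 429 and 398 TPM in YAP5SA, against 248 and 246 TPM in YAP5SA-S94A. Their ratio overlapped between the forms, at 11.2 and 12.1 in YAP5SA and 12.1 and 11.7 in YAP5SA-S94A (exact permutation p = 0.667). Of 4 genes 2 rose, beside 17.4% called higher over all tested genes. Myh9, the heavy chain of non-muscle myosin IIA, stood at 315 and 290 TPM in YAP5SA against 143 and 148 TPM in YAP5SA-S94A (log2 fold change 1.05, limma adjusted p = 0.000253). Myh10, that of IIB, averaged 66.3 ± 1.5 TPM in YAP5SA and 46.5 ± 2.53 TPM in YAP5SA-S94A (0.51, adjusted p = 0.0107). The Myh10 call was lost without YAP5SA-S94A replicate 2 (adjusted p = 0.134). Myh14 averaged 29.9 ± 5.75 TPM in YAP5SA and 41.7 ± 2.52 TPM in YAP5SA-S94A (−0.48, adjusted p = 0.0512) and was called lower in 6 alternatives, among them median-of-ratios scaling (adjusted p = 0.0289), quantile normalization (0.0315), leaving out the mitochondrial chromosome (0.0203) and leaving out YAP5SA replicate 1 (0.0112).

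**Figure D4:**
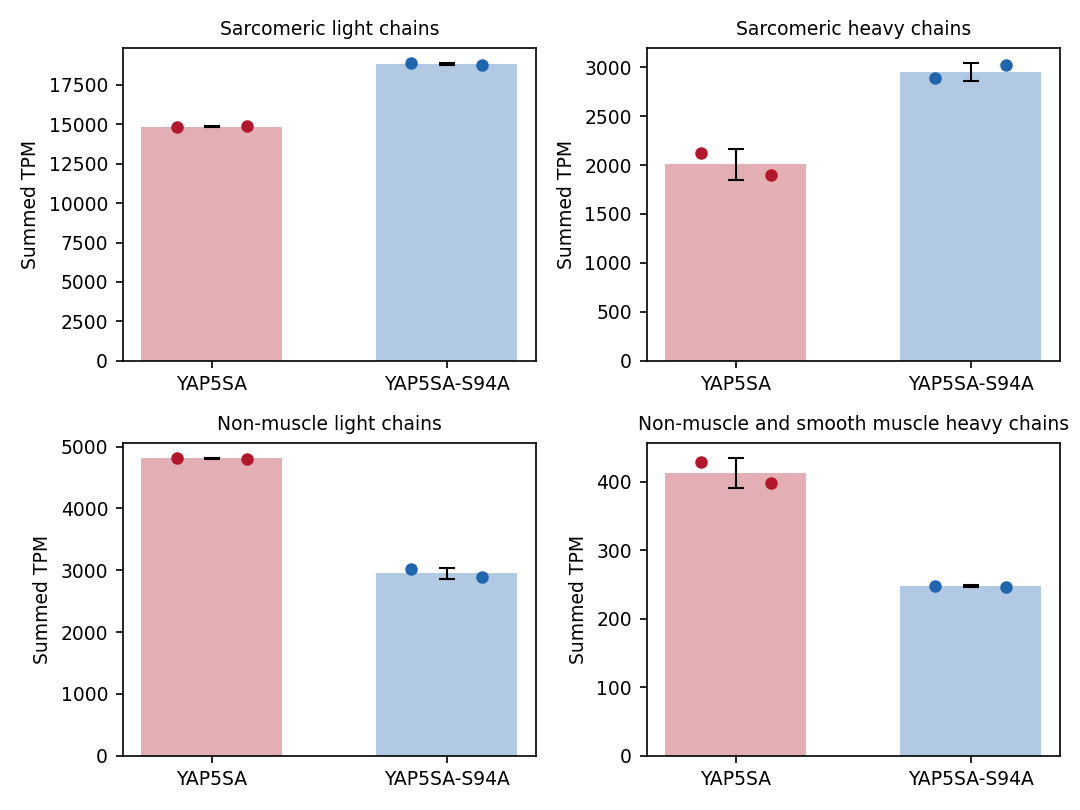
Summed TPM of sarcomeric light chains, sarcomeric heavy chains, non-muscle light chains and non-muscle with smooth muscle heavy chains, with bars for the mean, error bars for the SD (n = 2) and points for libraries. Both sarcomeric sums are lower in YAP5SA and both non-muscle sums higher.

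The enzymes that act on regulatory light chains were counted by role. Of 18 tested kinase and calmodulin genes 7 rose and 1 fell, beside 17.4% called higher and 15.5% called lower over all tested genes. The median difference was 0.28 on the log2 scale. The 7 became 4 without YAP5SA-S94A replicate 1 or with no filter on low values, and the 1 became 0 without YAP5SA replicate 2 or either YAP5SA-S94A library. Calm2, which encodes calmodulin, the calcium sensor that switches light chain kinases on, averaged 538 ± 41.2 TPM in YAP5SA and 307 ± 6.09 TPM in YAP5SA-S94A. Rock2, a kinase of the regulatory chain and of its phosphatase, stood at 85.2 and 117 TPM in YAP5SA, against 56.8 and 59.2 TPM in YAP5SA-S94A (log2 fold change 0.78, limma adjusted p = 0.00878), and was not called with no filter on low values (adjusted p = 0.053). Pak1, a kinase downstream of Cdc42 and Rac, averaged 20.4 ± 0.76 TPM in YAP5SA and 3.16 ± 1.27 TPM in YAP5SA-S94A. Cdc42bpa, a Cdc42-binding kinase, averaged 35.6 ± 2.199 TPM in YAP5SA and 23.8 ± 1.54 TPM in YAP5SA-S94A (adjusted p = 0.0134), and it was not called when YAP5SA-S94A replicate 1 was left out (adjusted p = 0.134). Mylk, the kinase of smooth muscle and non-muscle cells, named here after its values were seen, stood at 8.71 and 9.74 TPM in YAP5SA and 11.4 and 12.2 TPM in YAP5SA-S94A, and was not called (adjusted p = 0.151).

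Of 9 genes of the light chain phosphatase 1 rose and 2 fell. Ppp1cb, the catalytic subunit, averaged 210 ± 9.33 TPM in YAP5SA and 262 ± 4.85 TPM in YAP5SA-S94A (log2 fold change −0.32, limma adjusted p = 0.032), and its call was lost without YAP5SA-S94A replicate 1 (0.229) or 2 (0.301). Ppp1r14c, a phosphatase inhibitor, averaged 76.2 ± 4.41 TPM in YAP5SA and 130 ± 2.89 TPM in YAP5SA-S94A. Mprip, which ties the phosphatase to actin and RhoA, stood at 180 and 167 TPM in YAP5SA and 126 and 85.6 TPM in YAP5SA-S94A (0.73, adjusted p = 0.017), a call lost without YAP5SA replicate 1 (0.0857), YAP5SA replicate 2 (0.0665) or YAP5SA-S94A replicate 2 (0.0858). The median over the list was −0.18, and the 3 of 9 genes called stand beside 32.9% over all tested genes.

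Of 12 genes upstream, around the small GTPase RhoA, 3 rose and 2 fell, with a median of 0.20, beside 17.4% called higher and 15.5% called lower over all tested genes. The 3 became 5 without YAP5SA replicate 2 or with median-of-ratios scaling. Rnd1 and Rnd3, small GTPases known to oppose RhoA signalling, averaged 115 ± 12.4 and 203 ± 5.65 TPM in YAP5SA, against 5.82 ± 1.00 and 77.0 ± 1.73 TPM in YAP5SA-S94A. Ect2, the RhoA exchange factor of cytokinesis, averaged 28.4 ± 3.97 TPM in YAP5SA and 5.96 ± 1.28 TPM in YAP5SA-S94A. Arhgef12, an exchange factor that links G protein-coupled receptors to RhoA, averaged 43.4 ± 0.16 TPM in YAP5SA and 95.1 ± 3.79 TPM in YAP5SA-S94A, and Rgs2, a brake on Gq signalling, 75.8 ± 2.33 TPM in YAP5SA and 128 ± 7.77 TPM in YAP5SA-S94A. RNA levels give no measure of light chain phosphorylation.

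Of the 8 other names of the light chain list, 3 were found in the tables and 2 were tested. Myl11, the fast skeletal regulatory chain, stood at 3.16 and 8.30 TPM in YAP5SA and 3.69 and 4.08 TPM in YAP5SA-S94A, which overlap, and was not called (limma adjusted p = 0.5), but was called higher without YAP5SA replicate 1 (log2 fold change 0.93, adjusted p = 0.021). Mylip, a ubiquitin ligase that carries the light chain name without being one, stood at 7.73 and 8.99 TPM in YAP5SA and 9.90 and 10.7 TPM in YAP5SA-S94A (adjusted p = 0.241).

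**Figure D5:**
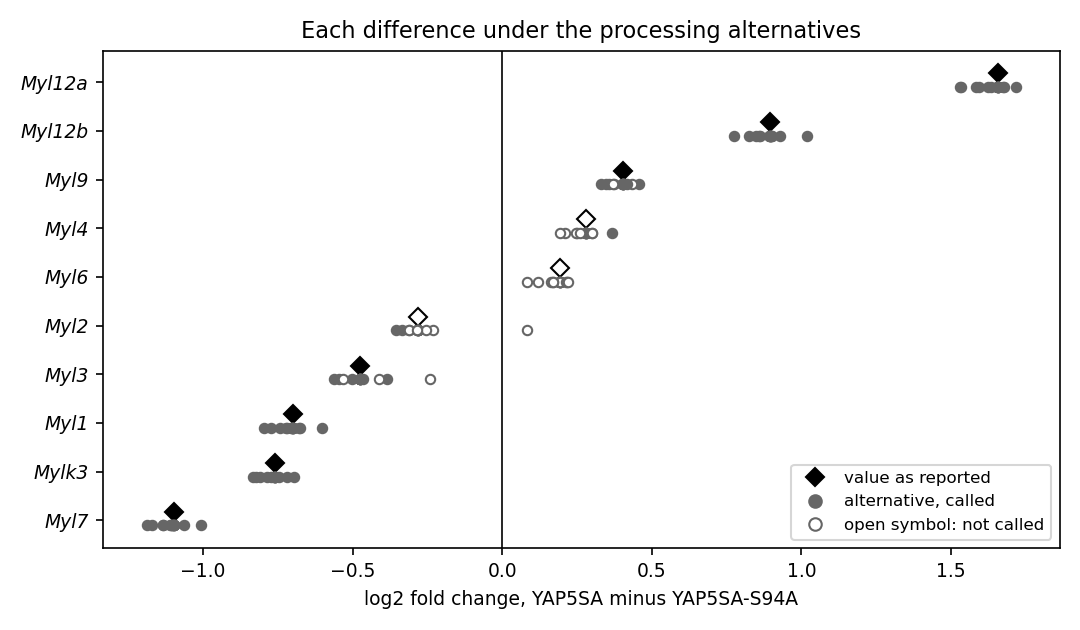
Log2 fold change of each gene as reported (diamond) and under the processing alternatives (circles), with open symbols where it was not called. Myl7, Mylk3, Myl1, Myl12b and Myl12a keep their sign and call under all of them, while a circle of Myl2 lies on the other side of 0 at 0.08, after quantile normalization.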

How the data were processed

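RNA-seq gave 4 libraries, and 6 further samples, from CUT&RUN, were not analysed here. Per the labels, libraries were directional. The build rn7, HISAT2 2.2.1, StringTie 2.2.1, fastp and R 4.3.1 are named, without settings or order, in the submitters' processing notes. Whether counting used the strand is not given in the sources used here, so genes that overlap another on the opposite strand are uncertain. The TPM values used were computed by the authors and sum to 1000000 per library. In each library the deposited FPKM values equal the authors' TPM times a constant. The deposited coverage column (signal), per the file headers, gives read coverage per base and is not scaled for depth.

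TPM was summed over entries with the same gene name. Names whose 4 libraries averaged 1 TPM or more (13420 of 39784) were tested with limma 3.58.1 (R 4.3.3) on log2(TPM + 1), with an intensity trend and 2 residual and 5.09 prior degrees of freedom. Such fold changes understate those of low genes. The fit was also run on simulated log values with independent normal noise. That setting meets the fit's assumptions, so it cannot show how the fit behaves with the spread of these libraries. The sums and shares were compared by exact two-sided permutation over libraries. The 10 genes and all gene lists were chosen with earlier results of these data known. The rule for naming genes besides the 10 took the tested heavy chain genes and up to 5 called genes of each pathway list with the smallest p. Where fewer than 2 of a pathway list were called, it took up to 2 others of highest level. It also took up to 3 markers of highest level per cell type. A pathway gene and some of the markers so picked are left out. Genes named outside this rule were added with their values known. Alternatives were other pseudocounts (0.1 and 0.5), filters, units, scalings and thresholds, a fit with no intensity trend, a block on the replicate number, and leaving out each library. Python 3.11.15 made the tables and figures (pandas 2.3.3, matplotlib 3.10.9, numpy 2.4.6).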

Additional observations from a re-analysis of the deposited data

How the results depend on the processing

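Myl7, Myl1, Myl12a, Myl12b and Mylk3 kept their direction and call in each of 15 alternatives to the main settings, and Myl12a also when summed with Myl12b. Myl6 was called in none of them. With 2 libraries per form, small differences lie near the threshold. Myl2 (log2 fold change −0.283) was called lower with FPKM (−0.312) and without the mitochondrial chromosome (−0.355), and reversed after quantile normalization (0.083). Leaving out each library gave −0.334 to −0.232. Myl3 (−0.474) was not called with no filter on low values (−0.474) or no intensity trend (−0.474), nor after quantile normalization (−0.241). Leaving out each library gave −0.564 to −0.384. Myl4 (0.280) ranged from 0.194 to 0.366 on leaving out each library, and was called higher at the upper end. Myl9 (0.402) was not called with no filter (0.402) or no intensity trend (0.402), and ranged from 0.348 to 0.457 on leaving out each library. At an adjusted p under 0.01, neither Myl3 (−0.474) nor Myl9 (0.402) was called, and over all genes 1439 rose and 1046 fell, with 7 pathway genes higher, 3 lower and 14 markers lower, against 2337, 2083, 11, 5 and 22 at 0.05.

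Over all genes the number called lower ranged from 1312 to 2739 on leaving out each library. With no filter 7 pathway genes rose and 3 fell, and 3 fell with no intensity trend or by scaled coverage. Leaving out each library gave 3 to 7 pathway genes and 2 to 4 heavy chain genes called lower. The difference in the non-muscle light to heavy chain ratio (−0.292) reversed by scaled coverage (0.459), and on leaving out each library it ranged from −0.705 to 0.121. Of genes not called with all 4 libraries, leaving out each library reversed the log2 fold change of Col1a2 (−0.013 to 0.327), Col3a1 (−0.148 to 0.112), Pdgfrb (−0.112 to 0.077), Myl11 (−0.232 to 0.929) and Egfl7 (−0.209 to 0.082), and scaled coverage that of Egfl7 (0.006). The cause was not tested.

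Whether the numbers in the titles pair the libraries cannot be told: same-numbered libraries deviated together with r = 0.101 over 13420 genes, the design gives only 2 pairs, and the library names carry numbers that differ from those in the titles. With the replicate block 2726 genes rose and 2593 fell, and Myl2 (−0.283, limma adjusted p = 0.0244) and Myl4 (0.280, adjusted p = 0.0315) were called.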
